A study of Mus musculus with 7 samples.

Results

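Chemokine receptors let a leukocyte sense where it is called and where it is held. They are membrane proteins that cross the membrane several times and couple to inhibitory G proteins, so that a cell moves up a gradient of the ligand, and G protein-coupled receptor kinases, arrestins and RGS proteins end the signal. In injured tissue, Ccr2 and its ligand Ccl2 are best known for bringing in blood monocytes, Cx3cr1 for marking patrolling monocytes and many resident macrophages, and Cxcr2 for the recruitment of neutrophils.

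The 8 chemokine receptor genes described here, Ccr1, Ccr2, Ccr3, Ccr7, Ccrl2, Cx3cr1, Cxcr2 and Cxcr4, were chosen by symbol from the 23361 genes of the deposited table, and all 8 were found. RNASeq had been carried out on macrophages from the regenerative bridge that forms inside a conduit after the left sciatic nerve of BALB/cJ mice was transected and repaired. The sort gate was Lin-F4/80+CD14+CD11b+CD16/32+, with granulocytes, eosinophils, lymphocytes, red blood cells and fibroblasts excluded by antibodies to lineage markers. There were 3 libraries from day 5 after repair, 2 from day 14 and 2 from day 28, described by the submitters as independent biological replicates. The study's figure legends give 3 per time point for RNASeq, and the reason for the difference was not given in the sources used here. All mice were wild-type and all had the same surgery, so no uninjured nerve stands beside the time course, and neither the age of the mice nor whether a library came from 1 mouse or a pool was given in the sources used here.

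The libraries held 18027190 to 35247116 fragments assigned to genes. The genes of the sort were abundant at all times, with Cd14 at 1431 to 3003 FPKM (fragments per transcript length and library size) and Itgam, which encodes CD11b, at 201 to 397 FPKM. The levels of sort genes were not constant: Cd14 fell by 0.75 on the log2 scale from day 5 to day 14 (edgeR adjusted p = 0.0357) and by 0.76 to day 28 (edgeR adjusted p = 0.0145), and Emr1, which encodes F4/80, fell by 1.01 from day 5 to day 28 (edgeR adjusted p = 0.00650). The T cell gene Cd3e and the Schwann cell gene S100b were each at 0.18 FPKM or less in every library. The summed level of 6 fibroblast markers was 220 FPKM in day 14 replicate 1 against 28.8 to 80.3 FPKM in the other libraries. Over 7613 genes, day 14 replicate 1 lay nearer to the day 5 mean (distance 0.240, against 0.305 to day 28), while day 14 replicate 2 lay nearer to day 28 (0.226, against 0.360 to day 5).

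Of the 8 receptors, 5 lie on chromosome 9 of the mouse genome (GRCm38, the build that mm10 names). Ccr1 (chr9:123962124-123968692, minus strand), Ccr3 (chr9:124021972-124031689, plus strand) and Ccr2 (chr9:124101950-124113557, plus strand) form a cluster with gaps of 53.3 kb and 70.3 kb. Ccrl2 (chr9:111054486-111057519, minus strand) and Cx3cr1 (chr9:119901616-120069879, minus strand) lie apart from this cluster. Ccr7 is on chromosome 11 (chr11:99144196-99155077, minus strand), and Cxcr2 (chr1:74153989-74161246, plus strand) and Cxcr4 (chr1:128588199-128592293, minus strand) are on chromosome 1. Exons of Cx3cr1 overlap those of Gm33858 on the other strand, and whether the counting used strand was not given in the sources used here, so reads of the pair could not be told apart.

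The second intracellular loop of a signalling chemokine receptor begins with a stretch of 7 residues, the DRYLAIV box, at which the G protein is engaged. The coding sequence of this stretch is shown for 4 of the receptors because it separates Ccrl2 from the rest. The bases in capitals encode the box, or the 7 codons aligned to that of Ccr1, and the lower case bases are the 2 codons on each side.
Ccr1 (chr9:123964078-123964110, minus strand): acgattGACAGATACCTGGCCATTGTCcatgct
Cx3cr1 (chr9:120051930-120051962, minus strand): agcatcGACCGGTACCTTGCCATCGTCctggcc
Ccr7 (chr11:99145612-99145644, minus strand): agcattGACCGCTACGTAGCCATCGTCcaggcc
Ccrl2 (chr9:111056009-111056041, minus strand): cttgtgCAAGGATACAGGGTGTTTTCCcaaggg
All 7 residues of the box were present in 6 receptors (Ccr1, Ccr2, Ccr3, Cx3cr1, Cxcr2 and Cxcr4), and Ccr7 had 6 of them. In Ccrl2, an atypical receptor that binds chemerin and is not known to signal through G proteins, 1 of the 7 aligned residues matched. Among the 8 receptors, protein identity was highest between the neighbours Ccr1 and Ccr3 (61.9% of aligned residues) and lowest between Ccrl2 and Cxcr4 (23.9%).

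The receptors spanned a wide range of levels, and the top of the order did not change over time. Ccrl2 was the most abundant at each time, at 584 ± 71.0 FPKM at day 5 (SD, n = 3), 568 ± 15.1 FPKM at day 14 (SD, n = 2) and 542 ± 54.7 FPKM at day 28 (SD, n = 2). It made up 58.8%, 55.3% and 50.4% of the summed FPKM of the 8 receptors. Cxcr4 came second at each time and did not overlap with Ccrl2 above it or with the next receptor below it. At day 5 the order went on with Ccr1 (99.7 FPKM) and Ccr2 (74.8 FPKM), whose libraries did not overlap. At day 14 Ccr2 (74.4 FPKM) and Ccr1 (57.6 FPKM) overlapped, and at day 28 Ccr2 (124 FPKM) stood above Ccr1 (58.6 FPKM) without overlap. Among the scarcer receptors at day 5, Cx3cr1 (5.06 FPKM) overlapped with Ccr7 (6.64 FPKM) above it and with Cxcr2 (3.45 FPKM) below it. By day 28, Cx3cr1 (40.2 FPKM) was above Ccr7 (17.8 FPKM), which was above Cxcr2 (1.90 FPKM), with no overlap between neighbours. Ccr3 was the lowest at each time. The 8 receptors together summed to between 932 and 1102 FPKM in each library. Day 5 overlapped with both later days in this sum, and both day 28 libraries lay above both day 14 libraries. In bulk RNA, fewer cells of a type and less RNA per cell cannot be told apart, which holds for each level below.

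**Figure D1:**
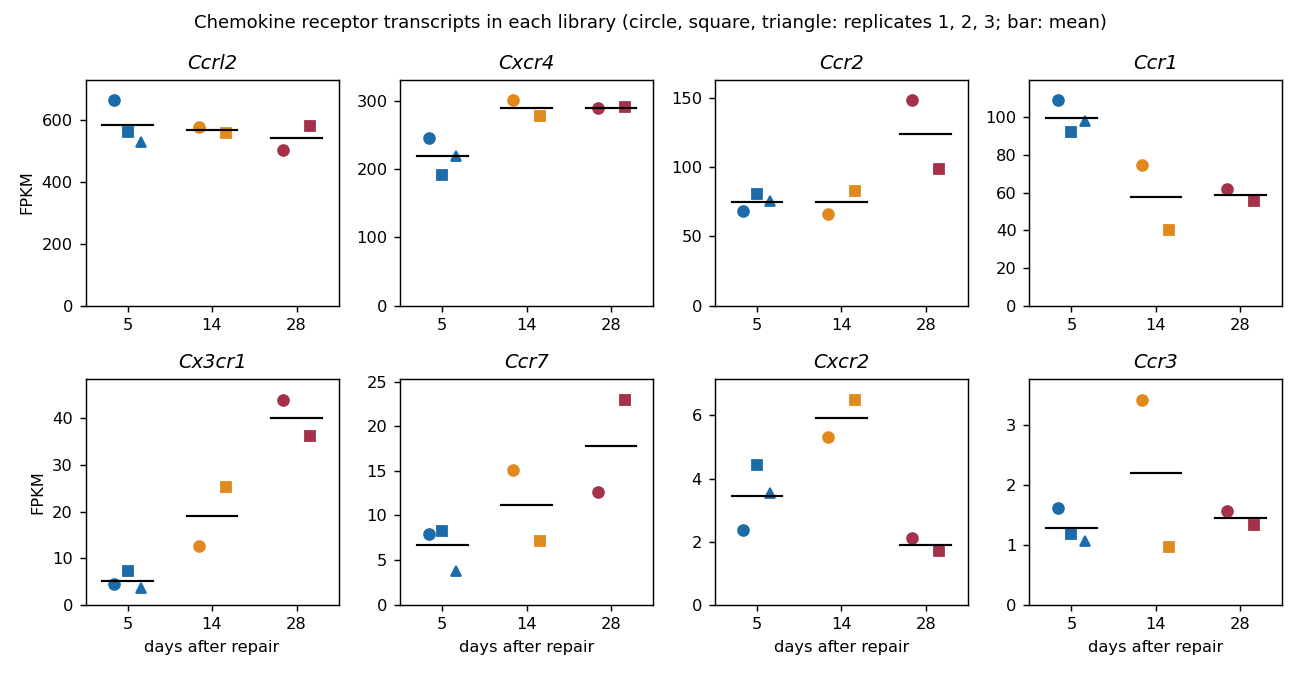
FPKM of the 8 receptors in each library against days after repair, with a linear axis from 0 for each gene. Points are libraries, shapes give replicate numbers and black bars are means. Cx3cr1 separates the 3 days, with its day 5 libraries at 7.15 FPKM or less and its day 28 libraries at 36.3 and 44.1 FPKM, while the Ccrl2 libraries of all days lie between 503 and 664 FPKM.

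The question behind the time course was how macrophage gene expression changed between the early, middle and late response to nerve repair. Days were compared pairwise with edgeR's quasi-likelihood test, and genes were called DE (differentially expressed) at a Benjamini-Hochberg adjusted p under 0.05 over all 12858 genes tested. Between day 5 and day 14, 1 of the 8 receptors was DE (Cx3cr1, higher), where 4.78% of all genes tested were and 2.84% were higher. Between day 14 and day 28, 0 of 8 were DE by edgeR, where 0.0622% of all genes tested were. DESeq2 called 3 receptors, where it called 346 of 12858 genes, and limma called 0 receptors and 0 genes. In that comparison Ccr2, Cx3cr1 and Cxcr2 had an unadjusted edgeR p under 0.05, as did 1570 of the 12858 genes. Between day 5 and day 28, 3 of 8 were DE (Ccr2, Ccr7 and Cx3cr1, all higher), where 15.2% of all genes tested were and 7.74% were higher. The median log2 fold change of the 8 receptors was 0.58, 0.02 and 0.30 in these 3 comparisons, against 0.03, 0.01 and 0.03 over all genes tested. To count as stringent DE, a gene also had to differ 2-fold in mean FPKM and to reach a mean of 5 FPKM on one of the days. Cx3cr1 met this between days 5 and 14, where 1.17% of all genes did. Ccr7 and Cx3cr1 met it between days 5 and 28, where 3.52% did. No receptor met it between days 14 and 28, where 0.0467% did. Comparisons of day 14 and of day 28 with day 5 share the day 5 libraries.

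Cx3cr1, the receptor of fractalkine, showed the widest range of the 8. It was at 4.47, 7.15 and 3.56 FPKM in the day 5 libraries, at 12.6 and 25.3 FPKM at day 14, and at 44.1 and 36.3 FPKM at day 28. The days did not overlap, and the fragments behind these values ran from 277 to 6052. Cx3cr1 was higher at day 14 than at day 5, with a log2 fold change of 1.92 ± 0.32 (SE, edgeR adjusted p = 0.0189). From day 5 to day 28 it rose by a log2 fold change of 3.01 ± 0.32 (SE, edgeR adjusted p = 0.00107), which was a ratio of 7.94 between the means in FPKM. The step from day 14 to day 28 was 1.08 ± 0.35 on the log2 scale (SE, edgeR adjusted p = 0.254) and did not pass the test. The day 14 call was lost without day 5 replicate 1 (edgeR adjusted p = 0.0717) and without day 5 replicate 3 (edgeR adjusted p = 0.0679). The day 28 call held in all 15 alternatives, with log2 fold changes of 2.80 to 3.33 and an adjusted p of at most 0.0198. Its ligand Cx3cl1 was nearly silent in these cells, at 0.02 to 0.42 FPKM.

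Ccr2, the receptor of Ccl2, Ccl7 and Ccl12 on which monocytes leave the bone marrow, was at 68.5, 80.5 and 75.3 FPKM at day 5. At day 14 it was at 66.3 and 82.6 FPKM, within the same range. At day 28 it was at 148 and 98.8 FPKM, above all earlier libraries, although the 2 libraries differed from each other by more than the day 5 libraries did. Ccr2 was higher at day 28 than at day 5 by a log2 fold change of 0.74 ± 0.18 (SE, edgeR adjusted p = 0.0259), and the step from day 14 to day 28 was 0.74 ± 0.20 (SE, edgeR adjusted p = 0.189). Between days 5 and 14 the log2 fold change was 0.00, with a 95% interval of -0.41 to 0.42. Without day 28 replicate 1 the value from day 5 to day 28 was 0.41 (edgeR adjusted p = 0.208), and without day 5 replicate 1, 2 or 3 the adjusted p was 0.0962, 0.0643 and 0.0736.

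Transcripts of the Ccr2 ligands went the other way. Ccl2 fell by 1.84 on the log2 scale from day 5 to day 28 (edgeR adjusted p = 0.0237), with 647, 560 and 503 FPKM in the day 5 libraries against 125 and 191 FPKM in those of day 28. Ccl7 fell by 2.02 (edgeR adjusted p = 0.0220) and Ccl12 by 1.53 (edgeR adjusted p = 0.0137). Of the 10 monocyte markers measured, 5 fell and 1 rose between days 5 and 28, where 7.51% of all genes fell and 7.74% rose. Among those that fell were Ly6c2, Ly6c1, Vcan and Plac8, with Ly6c2 at 57.1 to 107 FPKM at day 5 and at 12.3 and 8.31 FPKM at day 28. The one that rose was Fn1, which encodes fibronectin and which was the largest part of the list's summed level in each library, a sum of 1258 to 1394 FPKM in the day 5 libraries against 2117 and 2155 FPKM in those of day 28. The part of these markers in the levels of Ccr2 and Cx3cr1 was not tested.

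Ccr1, which binds Ccl3, Ccl5, Ccl6, Ccl7 and Ccl9, was at 109, 92.4 and 97.8 FPKM at day 5. It was at 74.8 and 40.3 FPKM at day 14 and at 61.8 and 55.5 FPKM at day 28, so that both later days lay below day 5 without overlap. The differences did not pass the test over all genes, with log2 fold changes of -0.79 ± 0.22 at day 14 (SE, edgeR adjusted p = 0.0738) and -0.75 ± 0.22 at day 28 (SE, edgeR adjusted p = 0.0506). DESeq2 called both (adjusted p = 0.00605 and 0.00468). The day 14 value rested on which day 14 library was kept: it was -1.29 without replicate 1 (edgeR adjusted p = 0.000539) and -0.41 without replicate 2 (edgeR adjusted p = 0.209). Of its ligands, Ccl6 was the most abundant, at 912 to 1693 FPKM, and Ccl3, Ccl5, Ccl6 and Ccl9 were not DE by edgeR in any comparison. At day 14 Ccl6 and Ccl9 lay below day 5 without overlap, while Ccl3 and Ccl5 overlapped with it. The log2 fold changes of Ccl6 and Ccl9 were -0.66 and -0.48 (edgeR adjusted p = 0.0562 and 0.0822). Ccl7, shared with Ccr2, fell by 2.02 on the log2 scale from day 5 to day 28 (edgeR adjusted p = 0.0220).

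Ccr7, which guides mature dendritic cells and T cells to lymph nodes along Ccl19 and Ccl21, was at 7.94, 8.27 and 3.73 FPKM at day 5. It was at 15.1 and 7.16 FPKM at day 14 and at 12.6 and 23.0 FPKM at day 28. Day 28 lay above day 5 without overlap, with a log2 fold change of 1.43 ± 0.39 (SE, edgeR adjusted p = 0.0400). The call was lost in DESeq2 (adjusted p = 0.0676), in limma on log2(FPKM + 1) values (adjusted p = 0.0672) and without any one library of day 5 or day 28 (edgeR adjusted p = 0.0712 to 0.236). The value itself moved to 0.93 without day 28 replicate 2 and to 1.803 without day 28 replicate 1. Its ligands were at or near 0, with Ccl19 listed without a fragment in all 7 libraries and Ccl21a at 0.08 FPKM or less.

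The summed level of 11 dendritic cell markers ordered the libraries much as Ccr7 did, at 27.7, 31.1 and 21.5 FPKM at day 5, 54.6 and 27.4 FPKM at day 14, and 44.6 and 62.4 FPKM at day 28. The lowest and highest library were the same in both measures. The larger parts of the sum were Ccl22, Irf4, Batf3, Fscn1 and Cd209a, while Flt3, Clec9a and Xcr1 stayed at or below 0.74 FPKM and Zbtb46 at or below 1.62 FPKM. Of the 11 markers, 1 was DE between days 5 and 28, where 15.2% of all genes were (Irf4, a log2 fold change of 1.94, edgeR adjusted p = 0.00129). The part of these markers in the level of Ccr7 was not tested.

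Cxcr2, the receptor of the neutrophil-attracting CXC chemokines, was at 2.38, 4.43 and 3.55 FPKM at day 5, at 5.31 and 6.50 FPKM at day 14, and at 2.10 and 1.70 FPKM at day 28. The 3 days did not overlap, and day 14 was the highest. No step passed the edgeR test, with log2 fold changes of 0.79 ± 0.25 from day 5 to day 14 (SE, adjusted p = 0.0995), -1.62 ± 0.29 from day 14 to day 28 (SE, adjusted p = 0.0763) and -0.83 ± 0.27 from day 5 to day 28 (SE, adjusted p = 0.0648). DESeq2 called all 3 (adjusted p = 0.04997, 4.16e-05 and 0.0212). The values rest on 93 to 415 fragments per library.

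The summed level of the 10 neutrophil markers in the table ran from 336 to 358 FPKM in the day 5 libraries, reached 595 and 580 FPKM at day 14, and was 292 and 152 FPKM at day 28, so that its days were ordered as those of Cxcr2 were. S100a8 and S100a9, which myeloid cells besides neutrophils also transcribe, made up most of the sum, and neither was DE by edgeR in any comparison. Single markers did not all follow the sum. Of the 6 tested, 0 rose and 1 fell between days 5 and 14 by edgeR, where 2.84% of all genes rose and 1.94% fell. The one that fell was Mmp8, a collagenase of neutrophil granules (log2 fold change -1.60, edgeR adjusted p = 0.0184). Csf3r, the receptor of granulocyte colony-stimulating factor, had a log2 fold change of -0.24 (edgeR adjusted p = 0.432). S100a9, S100a8 and Retnlg had log2 fold changes of 1.05, 0.83 and 0.90 (edgeR adjusted p = 0.0515, 0.165 and 0.185). The median of the 6 was 0.86, against 0.03 over all genes tested. In this comparison 5 of the 6 had an unadjusted edgeR p under 0.05, as did 3083 of 12858 genes in either direction. DESeq2 called 2, where it called 1392 genes. Between days 5 and 28, 0 rose and 2 fell, where 7.74% of all genes rose and 7.51% fell. These were Mmp8 (log2 fold change -2.58, edgeR adjusted p = 0.00101) and Csf3r (-1.09, edgeR adjusted p = 0.00581). Between days 14 and 28, 0 were DE by edgeR, where 0.0622% of all genes were. All 6 were lower at day 28 with an unadjusted edgeR p under 0.05, as 1570 of 12858 genes had in either direction. DESeq2 called 3, where it called 346 genes. Of the granule genes that define neutrophil precursors, Elane was listed without a fragment in all libraries and Mpo was at 0.20 FPKM or less. The granule gene Ltf was at 0.41 and 0.47 FPKM at day 14 and at 0.07 to 0.16 FPKM in the other libraries. Its log2 fold change from day 5 to day 14 was 2.31 (edgeR adjusted p = 0.0725), on 4 to 27 fragments per library. Ngp had fragments only in day 14 replicate 2 (1.25 FPKM), and Camp was at 0.56 FPKM or less. The part of these markers in the level of Cxcr2 was not tested.

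**Figure D2:**
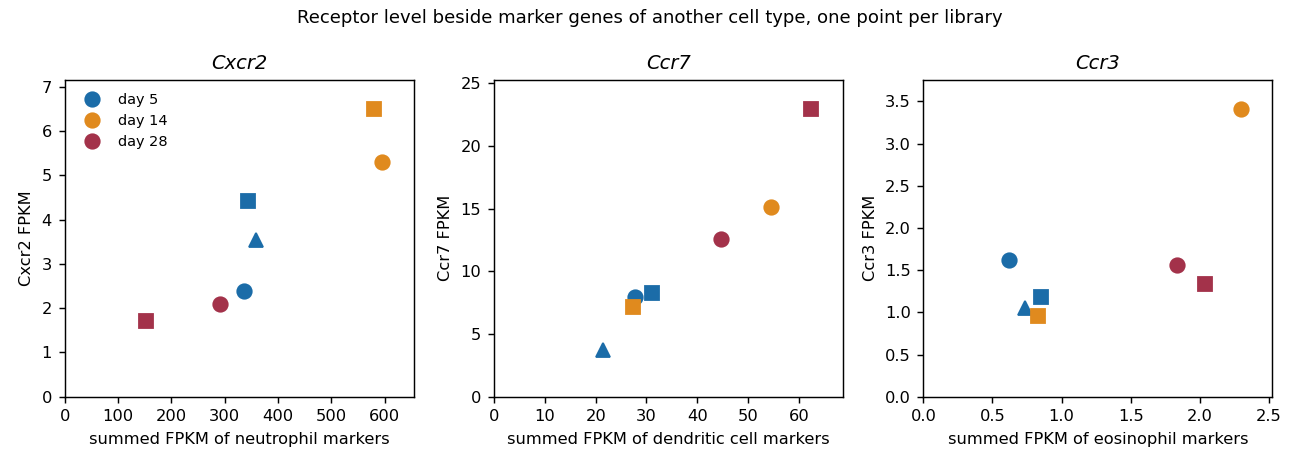
FPKM of Cxcr2, Ccr7 and Ccr3 against the summed FPKM of neutrophil, dendritic cell and eosinophil markers, with 1 point per library, colours for days and shapes for replicate numbers. For Cxcr2 the 2 day 14 libraries are highest on both axes (5.31 and 6.50 FPKM against 595 and 580 FPKM), and for Ccr3 day 14 replicate 1 stands apart at 3.42 FPKM.

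Among the ligands of Cxcr2, Cxcl2 and Cxcl1 had the highest levels of the listed ligands. By day 14, 4 of the 5 measured fell, where 1.94% of all genes fell. Over the 7 libraries Cxcl2 was at 2294 to 4557 FPKM and Cxcl1 at 1416 to 3009 FPKM. From day 5 to day 14, Cxcl5 fell by 2.79 on the log2 scale (edgeR adjusted p = 0.00482), Ppbp by 2.91 (edgeR adjusted p = 0.0157), Cxcl3 by 1.39 (edgeR adjusted p = 0.0184) and Cxcl1 by 0.75 (edgeR adjusted p = 0.0366). Cxcl5 was at 23.65, 23.85 and 31.7 FPKM at day 5 and between 2.79 and 4.82 FPKM in the 4 later libraries. From day 5 to day 28, Cxcl5 and Ppbp were DE and Cxcl1, Cxcl2 and Cxcl3 were not.

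Cxcr4, whose ligand Cxcl12 holds leukocytes in the bone marrow and in tissue, was the second most abundant receptor. It was at 244, 191 and 220 FPKM at day 5, at 300.45 and 277 FPKM at day 14, and at 289 and 290.0 FPKM at day 28. Both later days lay above day 5 without overlap, and they overlapped with each other. The log2 fold changes from day 5 were 0.41 ± 0.13 at day 14 (SE, edgeR adjusted p = 0.0963) and 0.42 ± 0.13 at day 28 (SE, edgeR adjusted p = 0.0578), neither of which passed the test. DESeq2 called both (adjusted p = 0.0456 and 0.0281). Cxcl12 was DE between days 5 and 14 (log2 fold change 2.22, edgeR adjusted p = 0.0370), at 2.61, 1.58 and 0.58 FPKM at day 5 and at 10.8 and 4.28 FPKM at day 14. The higher of the day 14 values was in replicate 1, the library with the highest fibroblast marker sum, and the part of those markers was not tested. The other receptor of Cxcl12, the scavenging receptor Ackr3 (listed as Cxcr7), was DE in both comparisons with day 5. It was at 9.29, 10.5 and 13.8 FPKM at day 5, at 2.68 and 5.86 FPKM at day 14 and at 2.73 and 2.80 FPKM at day 28. Cxcr7 fell by 1.35 on the log2 scale at day 14 (edgeR adjusted p = 0.0451) and by 1.99 at day 28 (edgeR adjusted p = 0.00555). The summed level of 5 endothelial markers ranged from 16.4 to 27.7 FPKM in the day 5 libraries, was 11.1 and 15.0 FPKM in those of day 14, and was 7.41 and 10.9 FPKM in those of day 28. Of these, Pecam1 fell 3.48-fold from day 5 to day 28 (edgeR adjusted p = 0.0145) and Kdr fell by 3.02 on the log2 scale (edgeR adjusted p = 0.00290), while Vwf rose by 2.07 on that scale (edgeR adjusted p = 0.0210), and their part in the level of Cxcr7 was not tested.

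Ccrl2 varied least. It was at 664, 560 and 528 FPKM at day 5, at 578 and 557 FPKM at day 14, and at 503 and 581 FPKM at day 28, and the 3 days overlapped. The coefficient of variation over the 7 libraries was 8.94%, against 15.96% for Cxcr4 and 85.6% for Cx3cr1. No comparison passed the edgeR test (adjusted p = 0.913, 0.899 and 0.679), and the 95% intervals of the log2 fold changes were -0.34 to 0.28 from day 5 to day 14, -0.40 to 0.27 from day 14 to day 28 and -0.40 to 0.21 from day 5 to day 28. Differences of 2-fold lay outside each interval. Cmklr1, the signalling chemerin receptor to which Ccrl2 can present its ligand, was at 73.3 to 89.7 FPKM and was not DE in any comparison. Rarres2, which encodes chemerin, was at 1.28 to 11.1 FPKM and was not DE, and Gpr1, another chemerin receptor, was listed without a fragment.

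Ccr3, the eotaxin receptor of eosinophils, was the scarcest of the 8. It was at 1.62, 1.19 and 1.05 FPKM at day 5, at 3.42 and 0.957 FPKM at day 14, and at 1.56 and 1.34 FPKM at day 28, and was not DE in any comparison (edgeR adjusted p = 0.341, 0.683 and 0.817). The day 14 mean rested on replicate 1: the log2 fold change from day 5 was 0.76 with both libraries and -0.41 without it. The summed level of 5 eosinophil markers was also highest in that library, at 2.30 FPKM against 0.62 to 2.04 FPKM in the others, and the part of these markers was not tested. The eosinophil genes Epx and Ear6 were at 0.02 FPKM or less throughout, and Il5ra was at 0.19 FPKM or less. The eosinophil granule gene Prg2 was at 1.13 FPKM in day 14 replicate 1, on 13 fragments, and at 0.23 FPKM or less in the other libraries. The gene of Siglec F (listed as Siglec5) was the one eosinophil marker tested, at 0.41 to 0.55 FPKM at day 5 and at 1.57 and 1.91 FPKM at day 28, and rose by a log2 fold change of 1.85 between these days (edgeR adjusted p = 0.0105). The Ccr3 ligand Ccl24 was abundant and rose. Ccl24 was at 32.97, 43.8 and 42.2 FPKM at day 5, at 68.3 and 55.6 FPKM at day 14, and at 112 and 114 FPKM at day 28, which gave log2 fold changes from day 5 of 0.65 (edgeR adjusted p = 0.0395) and 1.52 (edgeR adjusted p = 0.000706).

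**Figure D3:**
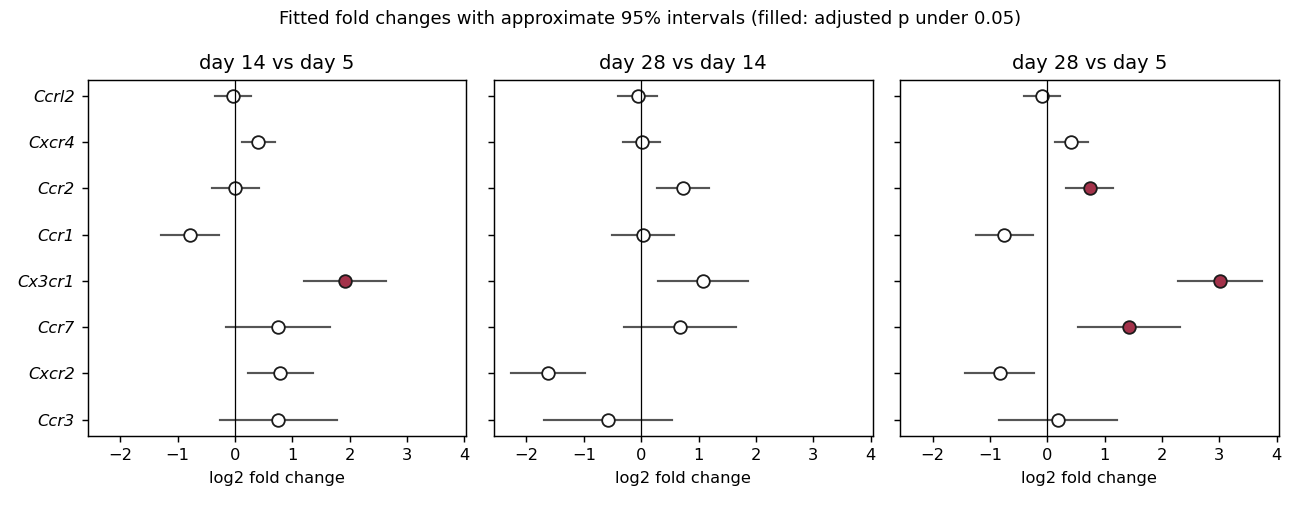
Log2 fold changes of the 8 receptors in the 3 comparisons (edgeR), with approximate 95% intervals as lines and filled points for an adjusted p under 0.05. Cx3cr1 is filled in 2 panels, at 1.92 and 3.01, Ccr2 and Ccr7 are filled only from day 5 to day 28, and Ccrl2 lies between -0.09 and -0.03.

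As a group, 16 of the 20 listed ligands passed the filter on low counts. Between days 5 and 14, 2 rose (Ccl24 and Cxcl12) and 4 fell (Cxcl1, Cxcl3, Cxcl5 and Ppbp), where 2.84% of all genes rose and 1.94% fell, with a median log2 fold change of -0.54 over the 16. Between days 14 and 28, 0 were DE by edgeR, where 0.0622% of all genes were. In that comparison 7 had an unadjusted edgeR p under 0.05, as did 1570 of the 12858 genes tested. DESeq2 called 3 of the ligands, where it called 346 of the 12858 genes. Between days 5 and 28, 1 rose (Ccl24) and 5 fell (Ccl2, Ccl7, Ccl12, Cxcl5 and Ppbp), where 7.74% of all genes rose and 7.51% fell, with a median of -0.47. The medians over all genes tested were 0.03, 0.01 and 0.03. In the comparisons of day 14 and of day 28 with day 5, DESeq2 called 9 and 7 of the 16 ligands. Over all genes it called 1392 and 2485 of 12858 there.

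**Figure D4:**
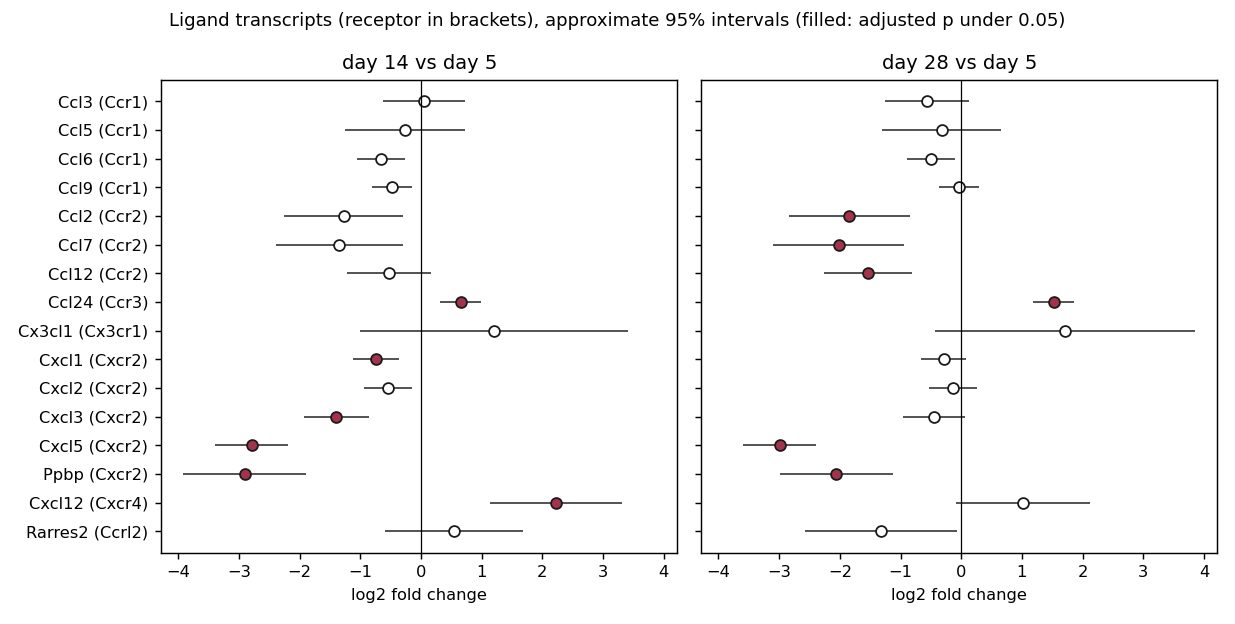
Log2 fold changes of the 16 ligand transcripts tested at day 14 and at day 28 against day 5 (edgeR), each labelled with a receptor it binds in brackets, with approximate 95% intervals and filled points for an adjusted p under 0.05. The ligands of Ccr2 lie between -2.02 and -1.53 at day 28, and Ccl24 lies at 0.65 and 1.52.

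Of the genes that carry or end the receptor signal, a chosen list of 29 was read, and 29 of 29 were tested. Between days 5 and 14, 3 rose and 0 fell, where 2.84% of all genes rose and 1.94% fell. Between days 5 and 28, 5 rose and 2 fell, where 7.74% of all genes rose and 7.51% fell, with a median of -0.18. The genes that rose at both times were Rgs1, Rgs2 and Rgs10, which encode proteins that speed the turning off of G proteins. Rgs2 was at 16.6 to 21.5 FPKM at day 5, at 47.8 and 69.6 FPKM at day 14 and at 61.1 and 59.4 FPKM at day 28, with log2 fold changes of 1.68 (edgeR adjusted p = 0.00554) and 1.72 (edgeR adjusted p = 0.000931). Rgs1 rose by a log2 fold change of 0.98 at day 14 (edgeR adjusted p = 0.0326) and of 1.46 at day 28 (edgeR adjusted p = 0.00270). Rgs18 and the receptor kinase gene Grk3 (listed as Adrbk2) rose by 0.84 and 0.54 from day 5 to day 28 (edgeR adjusted p = 0.00937 and 0.0383) and did not pass the test from day 5 to day 14 or from day 14 to day 28. Gnb1, a G protein beta subunit, fell by 0.44 (edgeR adjusted p = 0.0332) and Vav1, an exchange factor for Rac, by 0.66 (edgeR adjusted p = 0.0239) at day 28. The most abundant alpha subunit, Gnai2, was at 389 to 517 FPKM and was not DE.

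Several other chemokine receptor genes were at low levels. Cxcr3, a receptor of activated lymphocytes, was at 0.81 to 3.10 FPKM and was not DE by edgeR in any comparison. Ccr4, Ccr6, Ccr8, Ccr9, Ccr10, Ccr1l1, Cxcr1, Cxcr5, Cxcr6 and Xcr1 were each at 0.74 FPKM or less in every library.

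Over the 7 libraries, and as a description only, log2(FPKM + 1) of Cx3cr1 and Ccr1 had a Pearson correlation of -0.85, the lowest of the 28 pairs, and that of Cx3cr1 and Ccr2 was 0.75, the highest. The libraries of a day are shared by all genes, so that any pair of genes that changes with time is correlated. Among the 7607 other genes with a mean of at least 5 FPKM, the pattern of Cx3cr1 was most like that of Atp6v0d2 (Pearson r = 0.998, n = 7 libraries), which rose from a mean of 8.73 FPKM at day 5 to 48.1 and 110 FPKM, and that of Zadh2 (r = 0.995). Ccr1 was most like Plek (r = 0.998) and Etf1 (r = 0.996), Ccr2 like Degs2 (r = 0.989) and Ppa1 (r = 0.982), and Ccr7 like Tcirg1 (r = 0.982) and Adrbk2 (r = 0.969). Cxcr4 was like Sgsm3 (r = 0.976), Cxcr2 like 1810043G02Rik (r = 0.973) and Hmox2 (r = 0.957), Ccr3 like Rell1 (r = 0.967) and Tbc1d8 (r = 0.959), and Ccrl2 like Ctsz (r = 0.961) and Slc4a2 (r = 0.951). The number of candidates above 0.95 ranged from 2 for Ccr3, Ccrl2 and Cxcr2 to 166 for Ccr1.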

How the data were processed

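PolyA+ RNA of sorted macrophages was sequenced as single-end reads. Per the labels and the study's methods, the authors used cutadapt 1.8 for trimming, TopHat2 2.0.13 for mapping to mm10 (UCSC) and Cuffdiff 2.2.1 for quantification. Strandedness and the sharing of reads between similar genes were not given in the sources used here. The authors deposited estimated counts (fragments per gene before scaling), a scaled signal in which each library was multiplied by a factor, and FPKM, which also accounts for transcript length. The scaled signal served only for an alternative scaling. Libraries held 18027190 to 35247116 fragments.

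Estimated counts were rounded to whole numbers (1.01% of values were not whole) and fitted with edgeR 4.0.16 in R 4.3.3: TMM, expression filter by day, 7 libraries in one quasi-likelihood fit with day as the only factor, two-sided, Benjamini-Hochberg over 12858 genes. Standard errors and 95% intervals are approximate, since they were taken from the F statistic. The script was run on simulated data with known fold changes. There edgeR missed the first criterion for the number of changed genes recovered. Criteria for each size of fold change replaced it after that result was seen. P-values measure the spread between these libraries, whose source in mice was not fully described. DESeq2 1.42.0, limma 3.58.1 on log2(FPKM + 1) and log2(FPKM + 0.1), other scalings and filters, and leaving out each library were alternatives. Levels between genes were compared in FPKM only. The floor for detection was 3 fragments and covers counting error only.

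Named were all 8 receptors, their ligands, listed genes that were DE, the genes of the sort and defining markers, and for each receptor the 2 genes with the highest correlation. Cmklr1, Gpr1, Gnai2, Gm33858 and the scarce receptors were named outside that rule, with their values seen. Some items are not reported here. The receptors and gene lists were chosen with earlier results of these data known. Sequences, positions and translations came from the GENCODE annotation of GRCm38, and protein identity from global alignment.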

Additional observations from a re-analysis of the deposited data

How the results depend on the processing

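The receptor counts depended on the test and on single libraries. In the order day 14 against day 5, day 28 against day 14, day 28 against day 5, edgeR called 1, 0 and 3 receptors DE and 1, 0 and 2 stringent DE. DESeq2 called 4, 3 and 5 DE and 1, 2 and 1 stringent DE, where 1392, 346 and 2485 of 12858 genes were DE. Without the expression filter these were 3, 3 and 6 DE and 1, 2 and 2 stringent DE. In that fit 1429, 390 and 2466 of 17299 genes were DE. A fit of only the 2 days compared called 6 in the last comparison, where 2778 of 12594 genes were DE. An adjusted p under 0.01 left 0, 0 and 1 receptors, and 24, 0 and 597 of 12858 genes. Leaving out 1 library gave 0 to 2 DE and 0 to 2 stringent DE in the first comparison, 0 to 3 and 0 to 2 in the second, and 1 to 6 and 1 to 2 in the third. In the second, the 3 calls (Ccr2, Cx3cr1 and Cxcr2) came without day 14 replicate 2. The cause was not tested.

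Same-numbered libraries share only a number, and the correlation of their deviations was 0.13, -0.05 and 0.06 in the 3 comparisons. With the replicate block, 0, 0 and 1 receptors were DE and 0, 0 and 1 stringent DE, and over all genes 6, 0 and 735 were DE, against 614, 8 and 1960 without it. Over all alternatives, calls over all genes ran from 6 to 1728, 0 to 629 and 452 to 2778.

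Of 360 recomputed receptor fold changes, 295 kept their direction and side of the threshold, 17 were lost as calls, 32 became calls and 16 changed sign, the latter with adjusted p values of 0.269 or more. The log2 fold change of Ccr2 at day 14 against day 5 turned from 0.004 to -0.0075 with DESeq2 and with RLE size factors, to -0.0058 with the cuffdiff scaling, and to -0.0115 and -0.0117 with limma at the pseudocounts 1 and 0.1. Leaving out 1 library gave ranges that crossed 0. At day 14 against day 5 these were -0.17 to 0.16 for Ccr2, -0.41 to 1.41 for Ccr3 and -0.090 to 0.070 for Ccrl2. At day 28 against day 14 they were -0.34 to 0.54 for Ccr1, -1.22 to 0.60 for Ccr3, -0.17 to 0.030 for Ccrl2 and -0.045 to 0.065 for Cxcr4. At day 28 against day 5 Ccrl2 ran from -0.20 to 0.0076. Depth limits Ccr3 and Cxcr2 most, with as few as 66 and 93 fragments in a library.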
